A study of Mus musculus with 9 samples.

Results

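Expression was analysed for 9 mouse genes that encode receptors and regulators of mitophagy, which were chosen by name with earlier results of these data known. They were the kinase gene Pink1, the outer membrane receptor genes Bnip3, Bnip3l, Fundc1 and Bcl2l13, the inner membrane receptor gene Phb2, the adaptor genes Sqstm1 and Optn, and the kinase gene Tbk1. They are 9 of the 49315 gene IDs in the count table. All 9 were found in the annotation of the mouse genome GRCm38, and all 9 passed the filter on low counts in each comparison.

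The study asked how tumor cells differ after they take up mitochondria from astrocytes. SB28 is a glioblastoma cell line from C57BL6 mice that expresses GFP, and it was grown for 2 days in contact with primary neonatal astrocytes from C57BL6 mito::mKate2 mice, in which a transgene under the ubiquitous CAG promoter places the red fluorescent protein mKate2 in mitochondria. After sorting, RNA was sequenced from SB28 cells without the red signal (mKate2- cells), SB28 cells with it (mKate2+ cells) and astrocytes, in 3 libraries per group. By the methods of the study, the 3 cell populations were sorted from the same 3 co-cultures, but neither the methods nor the labels say which library came from which co-culture. The 3 groups shared the same untreated culture medium, and no library analysed here holds SB28 cells or astrocytes grown alone. The mKate2+ and mKate2- groups are defined by a fluorescence gate and come from a single tumor line, and the sort gates in the sample labels assign the dye CellTrace Violet to the tumor cells whereas the methods stain the astrocytes, so groups were taken from the library names.

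Mitophagy is the removal of mitochondria by autophagosomes, which fuse with lysosomes. In its ubiquitin-dependent branch, the kinase PINK1 accumulates on damaged mitochondria and starts the marking of their surface with ubiquitin, and adaptors such as optineurin and p62 then bridge the ubiquitin chains and the autophagosome, with the kinase TBK1 phosphorylating the adaptors. In its receptor branch, proteins anchored in the mitochondrial membranes bind LC3 and GABARAP proteins of the autophagosome directly, and the receptor genes Bnip3 and Bnip3l are known targets of hypoxia-inducible factors.

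Total counts were 27187348, 35891589 and 29839630 in the mKate2- libraries 1 to 3, 36051914, 39287841 and 34175016 in the mKate2+ libraries, and 24454561, 32707569 and 35135662 in the astrocyte libraries. Levels are given as CPM, the count of a gene scaled to a common library total. A pair of libraries stood apart. The mKate2+ library 2 had the lowest TMM scaling factor, 0.92 against 0.988 to 1.04 in the other libraries, and a high level of Tomm7, which encodes a small subunit of the import complex of the outer mitochondrial membrane, at 87.6 CPM against 21.6 and 26.2 CPM in mKate2+ libraries 1 and 3. The astrocyte library 3 held 362 CPM of Aldoc and 59.7 CPM of Aqp4, both astrocyte genes, against 55.6 and 33.8 CPM of Aldoc and 5.64 and 6.82 CPM of Aqp4 in astrocyte libraries 1 and 2. Where leaving out either library moved a log2 fold change of the 9 genes by more than 1.5 times or changed whether it passed, the value without it is also given.

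Slc1a3, the glutamate transporter of astrocytes, was at 173, 177 and 236 CPM in the astrocyte libraries and at no more than 2.38 CPM in any SB28 library. The summed level of 10 astrocyte markers was 752, 746 and 1309 CPM in astrocytes, with Sox9, Gja1 and Aldoc the most abundant in libraries 1, 2 and 3, and 328 to 406 CPM in SB28 cells, of which Gja1 gave 241 to 284 CPM. Gfap, a defining marker, reached only 8.83, 3.42 and 19.4 CPM in astrocytes. The astrocyte libraries also held the oligodendrocyte lineage genes Olig1 at 541, 241 and 304 CPM and Olig2 at 268, 159 and 155 CPM, the neuronal gene Stmn2 at 11.5, 43.4 and 38.5 CPM and the smooth muscle actin gene Acta2 at 60.1, 86.2 and 131 CPM. Summed over each list, oligodendrocyte lineage markers were at 847, 444 and 508 CPM in astrocytes and at 17.1 to 27.0 CPM in SB28 cells. Fibroblast and mural cell markers were at 448, 468 and 346 CPM in astrocytes and 169 to 247 CPM in SB28 cells. Col1a1 was the most abundant of them in astrocytes, at 325, 324 and 151 CPM. Neuron markers were at 25.4, 54.6 and 51.0 CPM in astrocytes and 19.9 to 26.8 CPM in SB28 cells, with Rbfox3 at 0 in every library. Microglia and macrophage markers summed to 28.9 to 40.7 CPM in astrocytes and 47.6 to 61.3 CPM in SB28 cells, nearly all of it Tmem119, with Cx3cr1 at or near 0 throughout, and endothelial markers to no more than 6.94 CPM. Olig1, Olig2, Stmn2 and Acta2 were lower in both SB28 groups than in astrocytes, whereas Phb2, Bcl2l13 and other genes described below were higher. Tubb3, another neuron marker, was also higher in SB28 cells. Among the astrocyte libraries, Olig1 was highest in library 1, where Stmn2 was lowest. The part of cells with these markers in the differences between SB28 cells and astrocytes described below was not tested. In such bulk samples, fewer cells of a type and less RNA per cell cannot be told apart.

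The promoters of Pink1 and Bnip3 are shown for their place among the 9 genes. Pink1 had the largest fold difference between the cell types, and Bnip3 the largest ratio of highest to lowest library within a group. Each run is the 250 bases before the RefSeq start site of the gene in GRCm38.p6, read 5′ to 3′ along the gene, both on the minus strand, at chr4:138326297-138326546 for Pink1 and chr7:138909507-138909756 for Bnip3. Capitals mark each ACGTG or GCGTG on either strand, the core letters that hypoxia-inducible factors are known to bind.
Pink1: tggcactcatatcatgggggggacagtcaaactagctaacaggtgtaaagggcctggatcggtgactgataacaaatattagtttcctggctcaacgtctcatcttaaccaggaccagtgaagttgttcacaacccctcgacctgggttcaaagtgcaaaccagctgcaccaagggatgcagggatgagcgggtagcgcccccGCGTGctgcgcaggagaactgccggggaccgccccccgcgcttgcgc
Bnip3: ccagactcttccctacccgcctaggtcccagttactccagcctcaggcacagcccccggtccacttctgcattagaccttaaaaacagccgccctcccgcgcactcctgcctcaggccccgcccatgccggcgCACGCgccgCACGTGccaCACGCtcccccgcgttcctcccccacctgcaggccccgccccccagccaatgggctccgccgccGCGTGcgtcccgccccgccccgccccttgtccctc
Counted from the start site, the Pink1 window held 1 match, with its first base at -47. The Bnip3 window held 5, with first bases at -117, -108, -107, -99 and -35, and those at -108 and -107 are both strands of a single CACGTG. At least 1 match was found in 38.6% of 32817 RefSeq windows of this length, 5 or more in 1.01% and CACGTG in 6.02%. The cut of 5 equals the count in Bnip3, which was picked for display after its values were seen, so the 1.01% is no test. A window was given for 8 of the 9 genes, and not for Bnip3l. Among the windows not shown, Tbk1 held 3 matches, Optn 2, Phb2 1, Bcl2l13 1, Fundc1 0 and Sqstm1 0. A match in these letters is a description of the sequence and no evidence of binding.

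Pink1 was the gene of the 9 that differed most between the cell types by fold. Its gene lies at chr4:138313409-138326307 on the minus strand. Pink1 was at 20.4, 24.9 and 19.6 CPM in the mKate2- libraries 1 to 3, at 23.2, 30.1 and 19.3 CPM in the mKate2+ libraries and at 128, 105 and 147 CPM in the astrocyte libraries. Every astrocyte library was above every SB28 library, while the tumor cell groups overlapped. By mean CPM, astrocytes held 5.86-fold the level of mKate2- cells and 5.23-fold that of mKate2+ cells. In edgeR's quasi-likelihood test over all genes, the log2 fold change was -2.54 (SE 0.16, adjusted P value 1.71e-05) for mKate2- cells and -2.30 (SE 0.22, adjusted P value 0.000127) for mKate2+ cells against astrocytes. Both comparisons share the astrocyte libraries. Without astrocyte library 3 these values were -2.43 and -2.21, and without mKate2+ library 2 the second was -2.53. Of the 13356 genes tested for mKate2- cells, 1661 had a more negative log2 fold change than Pink1.

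**Figure D1:**
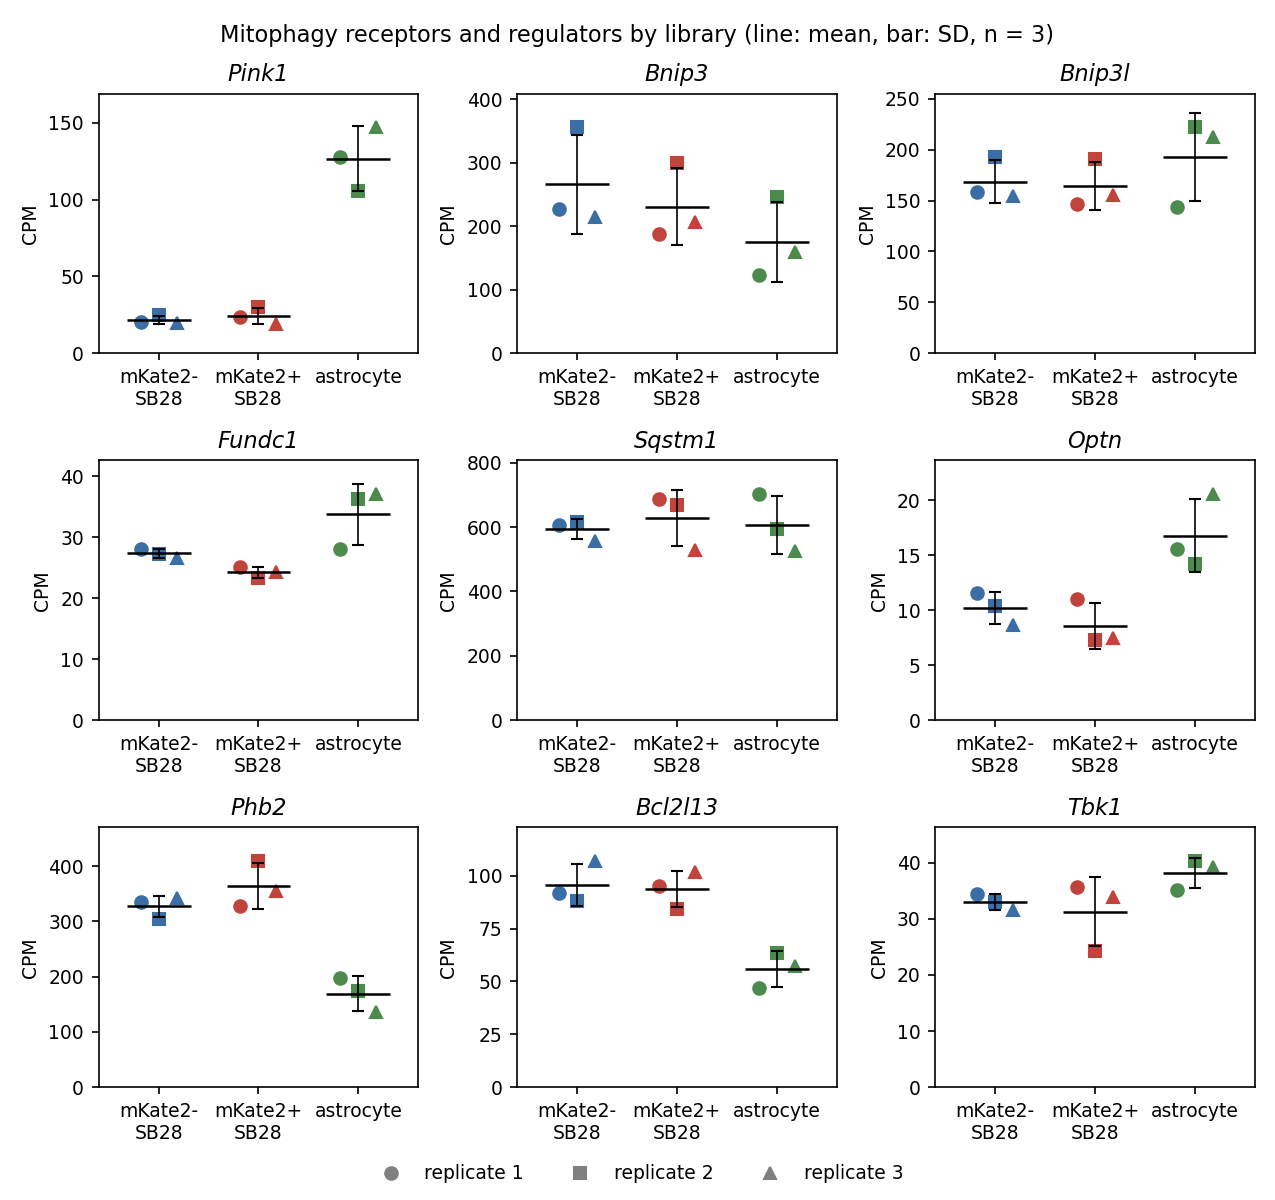
CPM (vertical axes, each starting at 0) of the 9 genes in both SB28 groups and in astrocytes, with 1 point per library, shapes for replicate numbers, lines for means and bars for the SD of 3 libraries. Pink1 and Optn are higher in every astrocyte library than in any SB28 library, Phb2 and Bcl2l13 are lower, and Sqstm1 overlaps across the 3 groups.

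Among the outer membrane receptors, Bcl2l13 was higher in the tumor cells, Fundc1 was lower in mKate2+ cells by a margin that did not hold in several settings, and Bnip3 and Bnip3l did not pass in edgeR's test with the filter on low counts and all libraries, but each passed in at least 1 other setting. Bcl2l13, a BCL2 family protein that binds LC3 (chr6:120836212-120892842, plus strand), was at 91.9, 88.3 and 107 CPM in mKate2- cells, at 95.1, 84.5 and 102 CPM in mKate2+ cells and at 46.9, 63.7 and 57.1 CPM in astrocytes. No SB28 library was as low as any astrocyte library. The tumor cells held 1.71-fold (mKate2-) and 1.68-fold (mKate2+) the mean astrocyte level, with log2 fold changes of 0.79 (SE 0.13, adjusted P value 0.00123) and 0.82 (SE 0.14, adjusted P value 0.00152). Bcl2l13 shares 628 exonic bases with Bid on the opposite strand, and Bid was at 8.91 to 19.9 CPM.

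Fundc1 encodes a receptor that is regulated by phosphorylation and known for its part in hypoxia (chrX:17556564-17572325, minus strand). It was at 28.1, 27.3 and 26.6 CPM in mKate2- cells, at 25.1, 23.3 and 24.3 CPM in mKate2+ cells and at 28.0, 36.2 and 37.0 CPM in astrocytes. The mKate2+ libraries lay below all others, and astrocyte library 1 fell among the mKate2- libraries. The log2 fold change against astrocytes was -0.40 (SE 0.14, adjusted P value 0.0433) for mKate2+ cells and -0.29 (SE 0.13, adjusted P value 0.0909) for mKate2- cells. Over 13 alternative settings the adjusted P value for mKate2+ cells ranged from 0.00968 to 0.151 and was below 0.05 in 6, and it was 0.0732 without mKate2+ library 2 and 0.087 without astrocyte library 3. For mKate2- cells it was below 0.05 in 3 of 13, and was lowest, at 0.0113, without astrocyte library 1. None of these settings used replicate numbers as a block. With a replicate block the call for mKate2+ cells was lost, at a log2 fold change of -0.39 and an adjusted P value of 0.0908. For mKate2- cells the block gave -0.28 and 0.154.

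Bnip3 and Bnip3l are paralogs that encode tail-anchored BH3-only proteins of the outer membrane. Bnip3 (chr7:138890836-138909519, minus strand) was at 228, 355 and 215 CPM in the mKate2- libraries 1 to 3, at 187, 299 and 206 CPM in the mKate2+ libraries and at 122, 245 and 158 CPM in the astrocyte libraries. Library 2 was the highest of its group in all 3 groups, and the groups overlapped. The log2 fold change against astrocytes was 0.62 (95% confidence interval -0.03 to 1.27, adjusted P value 0.0865) for mKate2- cells and 0.49 (-0.19 to 1.16, adjusted P value 0.182) for mKate2+ cells. Without astrocyte library 2, these became 0.92 (adjusted P value 0.0204) and 0.78 (adjusted P value 0.0489). Without astrocyte library 1 they were 0.42 and 0.28 (adjusted P values 0.223 and 0.438). Without library 2 of the tumor cell group itself they were 0.35 for mKate2- cells (adjusted P value 0.304) and 0.22 for mKate2+ cells (adjusted P value 0.526). Over 13 alternatives, not counting fits with the replicate number as a block, the adjusted P value ranged from 0.0204 to 0.304 for mKate2- cells, below 0.05 in 3 (without astrocyte library 2, with DESeq2 at 0.0451 and without a filter on low counts at 0.0283), and from 0.0489 to 0.526 for mKate2+ cells, below 0.05 in 1. A replicate block turned both calls, with log2 fold changes of 0.64 (SE 0.13, adjusted P value 0.0041) for mKate2- cells and 0.50 (SE 0.15, adjusted P value 0.0208) for mKate2+ cells. Each SB28 library was above the astrocyte library of the same number, although neither the methods nor the labels say that a number marks a shared co-culture. Bnip3 shares 504 exonic bases with an antisense gene, Gm45507, which held no more than 0.0368 CPM in any library.

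Bnip3l, also known as NIX and best known for clearing mitochondria from maturing red blood cells (chr14:66985239-67008877, minus strand), was at 159, 193 and 154 CPM in mKate2- cells, at 146, 191 and 155 CPM in mKate2+ cells and at 143, 222 and 213 CPM in astrocytes. Library 2 was again the highest of each group, by a smaller margin than for Bnip3, and the groups overlapped. The log2 fold change against astrocytes was -0.17 (-0.57 to 0.23, adjusted P value 0.41) for mKate2- cells and -0.15 (-0.61 to 0.32, adjusted P value 0.543) for mKate2+ cells. Without astrocyte library 1 these were -0.34, which passed at an adjusted P value of 0.0469, and -0.32 (adjusted P value 0.14). The value for mKate2+ cells was -0.30 without mKate2+ library 2, and the values were -0.11 and -0.096 without astrocyte library 3. Leaving out any single library gave -0.34 to -0.082 for mKate2- cells and -0.32 to -0.049 for mKate2+ cells. The ratio of Bnip3 to Bnip3l, per exonic length, was 2.65 ± 0.42 (SD, n = 3) in mKate2- cells, 2.37 ± 0.26 in mKate2+ cells and 1.53 ± 0.32 in astrocytes. The lowest SB28 ratio, 2.18, was above the highest astrocyte ratio, 1.88. With 3 libraries against 3 the exact two-sided permutation test cannot go below 0.1, the P value it gave for each tumor cell group against astrocytes (0.15 after adjustment over 3 comparisons), and it gave 0.5 between the tumor cell groups.

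Phb2, or prohibitin 2, is a scaffold of the inner mitochondrial membrane that can bind LC3 once the outer membrane is ruptured (chr6:124712336-124716950, plus strand). It was at 334, 305 and 342 CPM in mKate2- cells, at 328, 409 and 355 CPM in mKate2+ cells and at 197, 175 and 136 CPM in astrocytes. All SB28 libraries were above all astrocyte libraries. Mean levels in the tumor cells were 1.93-fold (mKate2-) and 2.15-fold (mKate2+) those of astrocytes. The log2 fold changes were 0.96 (SE 0.16, adjusted P value 0.00119) and 1.18 (SE 0.19, adjusted P value 0.00119), so that Phb2 lay below a threshold of 1 for mKate2- cells and above it for mKate2+ cells. Without mKate2+ library 2 the latter was 1.06, and without astrocyte library 3 the values were 0.82 and 1.02.

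Sqstm1, which encodes the adaptor p62, was the most abundant of the 9 genes per exonic length and did not differ detectably between the groups (chr11:50199366-50210827, minus strand). It was at 606, 616 and 558 CPM in mKate2- cells, at 687, 669 and 529 CPM in mKate2+ cells and at 702, 594 and 524 CPM in astrocytes. The lowest and highest libraries were both astrocyte libraries. The log2 fold change against astrocytes was -0.02 (-0.36 to 0.31) for mKate2- cells and 0.13 (-0.28 to 0.54) for mKate2+ cells, with adjusted P values of 0.911 and 0.553. Without astrocyte library 3 these values were -0.12 and 0.0061, and without mKate2+ library 2 the second was 0.046. Sqstm1 shares 580 exonic bases with Mrnip on the opposite strand, which was at 1.88 to 3.76 CPM.

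Optn encodes optineurin, an adaptor that binds ubiquitin and LC3, and it was the least abundant of the 9 genes per exonic length in all groups (chr2:5020642-5064051, minus strand). Optn was at 11.6, 10.4 and 8.65 CPM in mKate2- cells, at 10.98, 7.28 and 7.46 CPM in mKate2+ cells and at 15.6, 14.2 and 20.5 CPM in astrocytes. Every astrocyte library was above every SB28 library. Against astrocytes, the log2 fold change was -0.70 (SE 0.20, adjusted P value 0.015) for mKate2- cells and -0.90 (SE 0.23, adjusted P value 0.0109) for mKate2+ cells. Without mKate2- library 3 the former was -0.58 with an adjusted P value of 0.0655, and without astrocyte library 3 the values were -0.54 and -0.75, both below an adjusted P value of 0.05.

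Tbk1, the kinase that phosphorylates optineurin and p62, did not pass the test against astrocytes in either tumor cell group (chr10:121546455-121586787, minus strand). It was at 34.5, 33.0 and 31.6 CPM in mKate2- cells, at 35.7, 24.3 and 33.8 CPM in mKate2+ cells and at 35.2, 40.2 and 39.2 CPM in astrocytes. All mKate2- libraries were below all astrocyte libraries, the nearest at 34.5 and 35.2 CPM, while the mKate2+ libraries overlapped with astrocytes. The mKate2+ library 2 was the lowest of all 9 libraries. Log2 fold changes against astrocytes were -0.19 (-0.45 to 0.06, adjusted P value 0.158) for mKate2- cells and -0.22 (-0.58 to 0.15, adjusted P value 0.26) for mKate2+ cells. With the gene length trend removed, Tbk1 in mKate2- cells was at -0.29 and passed at an adjusted P value of 0.0411. Without mKate2+ library 2 the value for mKate2+ cells was -0.088 (adjusted P value 0.586).

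Over the 9 genes, 4 passed an adjusted P value of 0.05 in mKate2- cells against astrocytes, 2 higher (Phb2 and Bcl2l13) and 2 lower (Pink1 and Optn), and 5 passed in mKate2+ cells, where Fundc1 was also lower. With a replicate block, Fundc1 did not pass in mKate2+ cells and Bnip3 passed as higher in both comparisons. Of all genes tested, 63.1% passed in mKate2- cells (29.3% higher and 33.8% lower) and 60.1% in mKate2+ cells (28.0% higher and 32.1% lower). By count, the 9 genes did not pass more often than genes in general, and the difference was not tested. With an absolute log2 fold change above 1 also required, Pink1 was called lower in both comparisons and Phb2 higher in mKate2+ cells only, without a test of the difference between the comparisons. Across all genes that criterion called 11.5% higher and 22.4% lower in mKate2- cells, and 12.2% higher and 22.8% lower in mKate2+ cells. The median log2 fold change of the 9 genes was -0.17 and -0.15 for mKate2- and mKate2+ cells, beside -0.04 and -0.02 over all genes tested.

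**Figure D2:**
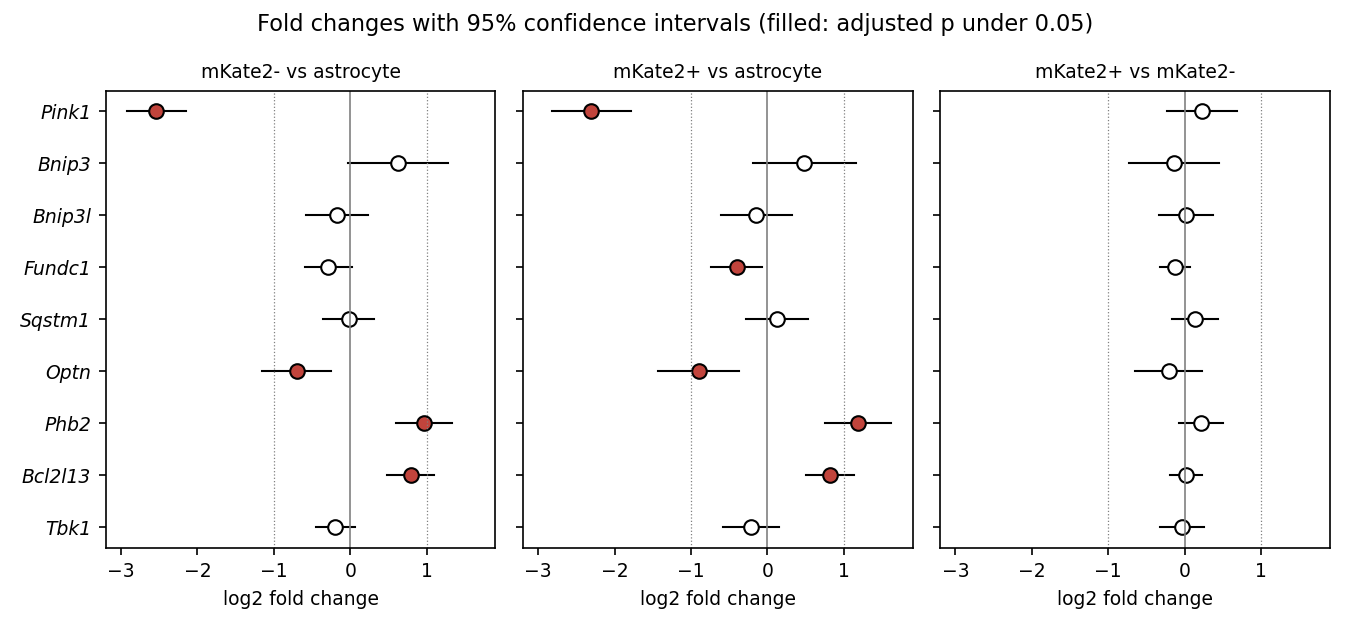
Log2 fold changes (horizontal axes) of the 9 genes in the 3 comparisons, with bars for 95% confidence intervals from edgeR and filled points for an adjusted P value under 0.05. Filled points are 4 in mKate2- cells against astrocytes, 5 in mKate2+ cells against astrocytes and 0 in mKate2+ against mKate2- cells, where all intervals include 0.

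The comparison of mKate2+ with mKate2- cells asked whether tumor cells carrying astrocyte mitochondria expressed these genes at another level. None of the 9 genes passed. In the edgeR fit used throughout, adjusted P values were 0.923 or higher, with 0 of 9 at an unadjusted P value below 0.05. Over 13 alternative settings the lowest adjusted P value of any of the 9 genes was 0.639. None met the criteria that the study used for higher genes in this comparison (more than 1.5-fold, P below 0.05 before adjustment, count over 50). The count was taken here as a mean, and the same criteria were also applied to lower genes, where none of the 9 met them. Of 11854 genes, 0.194% met them as higher and 0.169% as lower, which is 23 and 20 genes. Leaving out single libraries gave 6 to 310 higher and 16 to 70 lower genes. At an adjusted P value of 0.05, 0.0% of all genes passed, with 241 genes at an unadjusted P value below 0.05, and DESeq2 passed 0 genes at the adjusted threshold.

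The intervals of these differences bound the size of a change. The widest was that of Bnip3, with a log2 fold change of -0.14 (95% confidence interval -0.73 to 0.45), and the narrowest that of Fundc1, at -0.12 (-0.32 to 0.07). The mKate2+ and mKate2- libraries did not overlap for Fundc1, with an unadjusted P value of 0.186 in edgeR's test. The share of all genes without such overlap was not counted, so this is given as a description only. Pink1 was at 0.22 (-0.24 to 0.68), Phb2 at 0.21 (-0.08 to 0.50), Optn at -0.21 (-0.64 to 0.23) and Sqstm1 at 0.14 (-0.16 to 0.44). Bnip3l, Bcl2l13 and Tbk1 lay within 0.04 of 0, at 0.02, 0.02 and -0.04. The values of 7 of these genes, all but Fundc1 and Optn, moved by more than 1.5 times without mKate2+ library 2. Without it Pink1 was at -0.02, Phb2 at 0.07, Sqstm1 at 0.038, Bnip3 at -0.43, Bnip3l at -0.16, Tbk1 at 0.077 and Bcl2l13 at 0.046. Of the astrocyte markers, Slc1a3 was at 0.83, 0.56 and 1.11 CPM in mKate2+ libraries 1 to 3 and at 1.10, 0.95 and 2.38 CPM in mKate2- libraries. Gja1, by contrast, was at 265 and 276 CPM on average in mKate2- and mKate2+ cells against 198 CPM in astrocytes, and Sox9 at 92.3 and 86.1 CPM against 175 CPM. The part of carried-over astrocyte RNA in these values was not tested.

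Levels of different genes were compared as CPM per kb of exonic length. In mKate2- cells the order was Sqstm1 (177 ± 9.33 CPM per kb, SD, n = 3), Bnip3 (117 ± 34.3), Phb2 (88.0 ± 5.27), Bnip3l (43.7 ± 5.53), Fundc1 (11.6 ± 0.30), Bcl2l13 (10.5 ± 1.08), Tbk1 (8.45 ± 0.38), Pink1 (8.08 ± 1.07) and Optn (2.72 ± 0.39). The ranges of Fundc1 and Bcl2l13 overlapped, as did those of Tbk1 and Pink1, and all other neighbours were separate. In mKate2+ cells Sqstm1 (187 ± 25.8 CPM per kb) was again first, Bnip3 (102 ± 26.4) and Phb2 (97.9 ± 11.02) overlapped, Bnip3l (42.5 ± 6.14) came next, and Bcl2l13, Fundc1, Pink1 and Tbk1, at 8.004 to 10.3 CPM per kb, overlapped with their neighbours.

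Astrocytes had another order at the same extremes. Sqstm1 stood at 181 ± 26.6 CPM per kb, followed by Bnip3 (77.4 ± 27.9), Bnip3l (49.96 ± 11.1), Pink1 (47.4 ± 7.81) and Phb2 (45.5 ± 8.37), whose neighbouring ranges overlapped. Fundc1 (14.3 ± 2.12), Tbk1 (9.77 ± 0.68), Bcl2l13 (6.15 ± 0.93) and Optn (4.47 ± 0.88) came next, and Bcl2l13 and Optn overlapped. Pink1 was thus at the level of the receptor genes Bnip3l and Phb2 in astrocytes and at the level of Tbk1 in both tumor cell groups. The summed level of the 9 genes was 1513, 1654 and 1462 CPM in mKate2- libraries 1 to 3, 1539, 1737 and 1433 CPM in mKate2+ libraries and 1418, 1495 and 1332 CPM in astrocyte libraries, overlapping between groups, and Sqstm1 gave 36.9 to 49.5% of it.

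**Figure D3:**
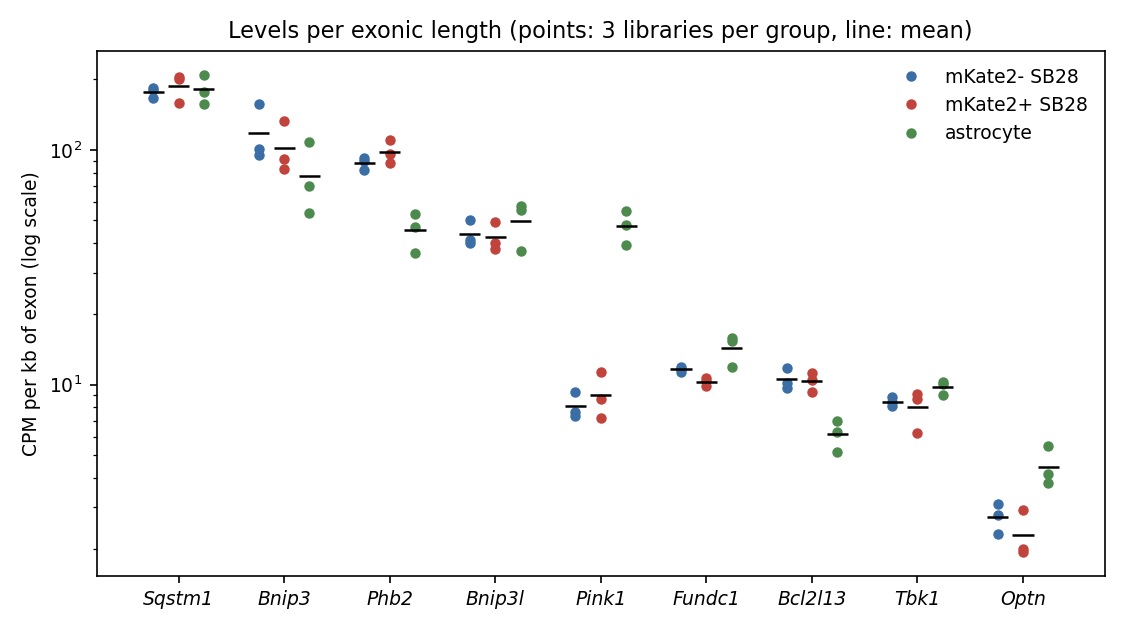
Level of each gene as CPM per kb of exon (vertical axis, log scale) in mKate2- cells, mKate2+ cells and astrocytes, with 1 point per library and lines for means. Pink1 lies near 47.4 CPM per kb in astrocytes and near 8.08 and 9.06 CPM per kb in mKate2- and mKate2+ cells, while Sqstm1 is highest and Optn lowest in each group.

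Other genes of the PINK1 pathway held both directions. Of 16 genes tested, 5 were higher and 3 lower in each tumor cell group against astrocytes at an adjusted P value of 0.05. Of all genes, 63.1% passed in mKate2- and 60.1% in mKate2+ cells, and the difference of the 16 genes from these shares was not tested. The median log2 fold change was 0.08 in mKate2- and 0.16 in mKate2+ cells, beside -0.04 and -0.02 over all genes. Usp30, a mitochondrial deubiquitinase that opposes mitophagy, was lower in both tumor cell groups. Its level was 22.1 ± 0.74 CPM (SD, n = 3) without and 22.0 ± 1.26 CPM with the mKate2 signal, and 46.5 ± 4.92 CPM in astrocytes, with log2 fold changes of -1.06 and -1.004.

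Among 10 other receptors and adaptors, 9 were tested, of which 0 were higher and 4 lower in each tumor cell group at an adjusted P value of 0.05. Of all genes, 33.8% were lower in mKate2- and 32.1% in mKate2+ cells, and 29.3% and 28.0% higher. Nlrx1, a mitochondrial NOD-like protein, was at 1.62 ± 0.28, 2.26 ± 0.16 and 9.09 ± 2.14 CPM in mKate2- cells, mKate2+ cells and astrocytes. Nipsnap1, a matrix protein exposed on depolarized mitochondria, was at 18.0 ± 1.33, 19.8 ± 0.78 and 48.0 ± 3.34 CPM in the same order. Both were called lower, with log2 fold changes of -2.47 and -1.93 for Nlrx1 and -1.41 and -1.20 for Nipsnap1. Calcoco2, the gene of the adaptor NDP52, was at 0.00 CPM in 8 libraries and was not tested.

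Of 7 prohibitin partners and inner membrane proteases, 6 were higher, like Phb2, and 0 lower in each tumor cell group at that threshold, where 29.3% (mKate2-) and 28.0% (mKate2+) of all genes were higher. The median log2 fold change was 0.73 in mKate2- and 0.80 in mKate2+ cells, beside -0.04 and -0.02 over all genes. Phb, the other subunit of the prohibitin ring, was at 280, 228 and 273 CPM in mKate2- cells, at 261, 247 and 282 CPM in mKate2+ cells and at 158, 136 and 103 CPM in astrocytes. The SB28 and astrocyte libraries did not overlap for Phb. Oma1, a protease activated by loss of membrane potential, was at 39.2 ± 2.495, 42.1 ± 3.18 and 16.8 ± 1.05 CPM in mKate2- cells, mKate2+ cells and astrocytes, with log2 fold changes of 1.23 and 1.40 against astrocytes. Spg7 was the gene of this list that did not pass, at -0.16 in both comparisons.

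Of 25 core autophagy genes, 1 was higher and 9 lower in mKate2- cells, and 4 higher and 7 lower in mKate2+ cells, by the same threshold. Of all genes, 63.1% passed in mKate2- cells (29.3% higher and 33.8% lower) and 60.1% in mKate2+ cells (28.0% higher and 32.1% lower). The difference of the 25 genes from these shares was not tested. Wdr45, which encodes a WIPI family protein, and Atg14, a subunit of the phosphatidylinositol kinase complex that starts autophagosomes, were called lower in both, with log2 fold changes of -1.43 and -1.58 for Wdr45 and -1.19 and -1.24 for Atg14. In the ATG8 family, the LC3 and GABARAP proteins that receptors bind, 1 of 5 was higher in each group, and 3 were lower in mKate2- and 1 in mKate2+ cells. Map1lc3b was at 112, 109 and 105 CPM in mKate2- cells, at 103, 126 and 98.6 CPM in mKate2+ cells and at 170, 157 and 151 CPM in astrocytes, and passed in both. Of the lysosomal transcription factor genes Tfeb, Tfe3 and Mitf, the first 2 were lower in both groups and Mitf did not pass.

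The lists of TBK1 partners, of kinases and phosphatases of the receptors and of the NRF2 pathway held both directions or few calls. The threshold was one that 63.1% (mKate2-) and 60.1% (mKate2+) of all genes passed. Of 4 TBK1 partners, 2 were higher in mKate2- and 1 in mKate2+ cells, with 0 lower. Of 7 kinases and phosphatases that act on the receptors, 2 were higher and 1 lower in mKate2- cells and 3 higher and 1 lower in mKate2+ cells. The lower one was Prkaa2, an AMPK catalytic subunit gene, at 2.14 ± 0.53, 2.04 ± 0.71 and 12.8 ± 5.49 CPM in mKate2- cells, mKate2+ cells and astrocytes. The 9 genes of the NRF2 pathway, which p62 is known to activate, had 3 higher and 2 lower in each tumor cell group, and the cystine transporter gene Slc7a11 and the quinone reductase gene Nqo1 were called higher in both, with log2 fold changes of 1.78 and 1.82 for Slc7a11 and 1.34 and 1.49 for Nqo1. Between mKate2+ and mKate2- cells, 0 genes of any of these lists passed.

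**Figure D4:**
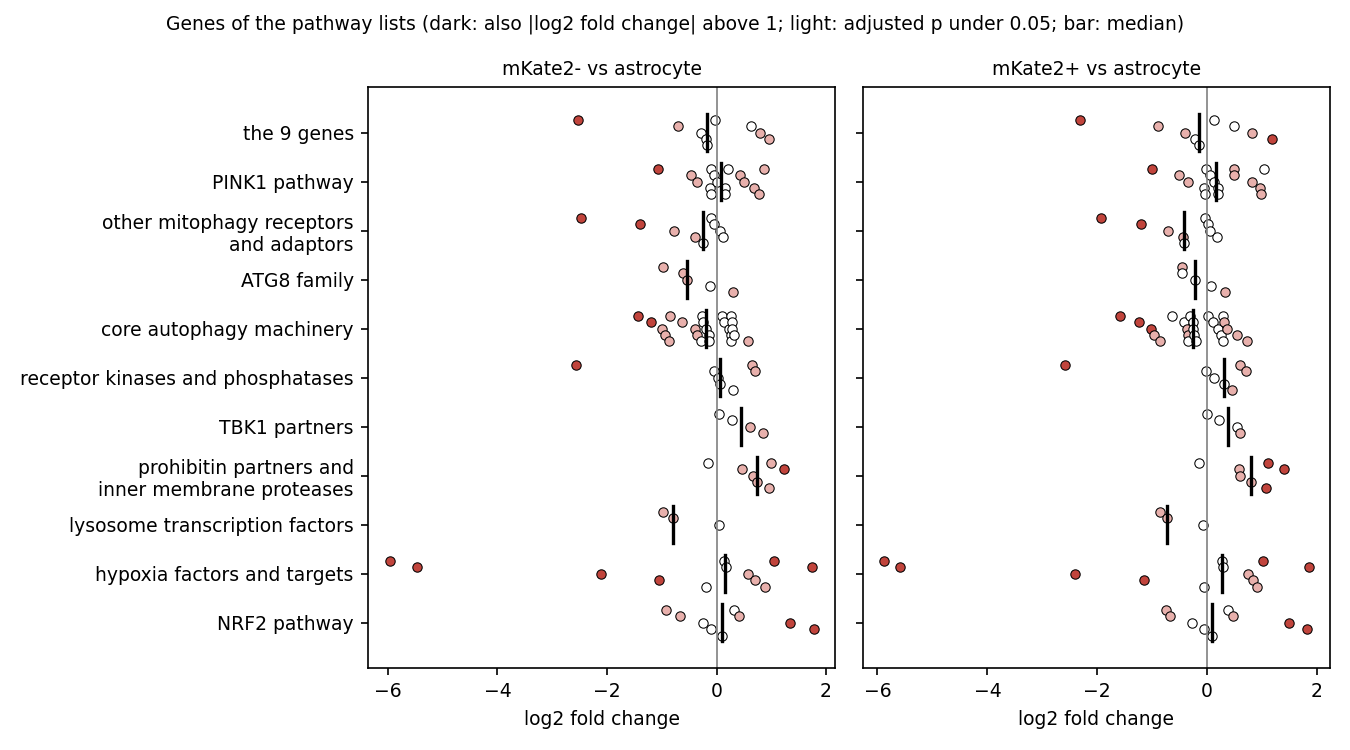
Log2 fold changes against astrocytes (horizontal axes) of the tested genes of each pathway list in mKate2- and mKate2+ cells, with white points for genes that did not pass, light points for an adjusted P value under 0.05, dark points for an absolute log2 fold change above 1 in addition, and bars for list medians. The prohibitin list lies to the right at medians of 0.73 and 0.80, and Epas1 and Adm of the hypoxia list lie furthest to the left.

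Of 12 hypoxia factors and targets, 5 were higher and 4 lower in each tumor cell group against astrocytes at an adjusted P value of 0.05. Over all genes the higher share was 29.3% for mKate2- and 28.0% for mKate2+ cells, and the lower share 33.8% and 32.1%. Epas1, which encodes HIF2α, was at 0.88 ± 0.15, 0.91 ± 0.26 and 56.1 ± 17.3 CPM in mKate2- cells, mKate2+ cells and astrocytes. Adm and Car9, targets of hypoxia-inducible factors, were also called lower in both, with log2 fold changes of -5.46 and -5.59 for Adm and -2.11 and -2.40 for Car9. Hif1a, by contrast, was higher in the tumor cells, by 1.04 and 1.01 on the log2 scale, as was the prolyl hydroxylase gene Egln3, by 1.74 and 1.85.

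Within groups, Bnip3 and Bnip3l varied with many of these hypoxia genes. Library 2 was the highest of its group in all 3 groups for 7 of the 12, Slc2a1, Pgk1, Ldha, Pdk1, Car9, Egln3 and Ankrd37, as for Bnip3 and Bnip3l, and for 0 of the other 7 of the 9 mitophagy genes. This held for 2.82% of 13450 genes over all 9 libraries, while library 3 was the highest in all groups for 8.33%. The hypoxia list was chosen with earlier results of these data known, and its difference from that share was not tested. Pdk1, which restrains the entry of pyruvate into mitochondria, was at 178, 277 and 194 CPM in mKate2- libraries 1 to 3, at 161, 247 and 192 CPM in mKate2+ libraries and at 96.0, 151 and 111 CPM in astrocyte libraries. Library 2 was thus 1.28, 1.24 and 1.27 times the group mean for Pdk1, and 1.34, 1.30 and 1.40 times for Bnip3. Ndrg1 and Vegfa did not have the pattern in all groups. Ndrg1 was highest in library 3 among astrocytes, at 134 CPM against 54.9 CPM in library 2. Whether same-numbered libraries come from the same one of the 3 co-cultures is not stated, so a co-culture and a library cannot be told apart here.

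**Figure D5:**
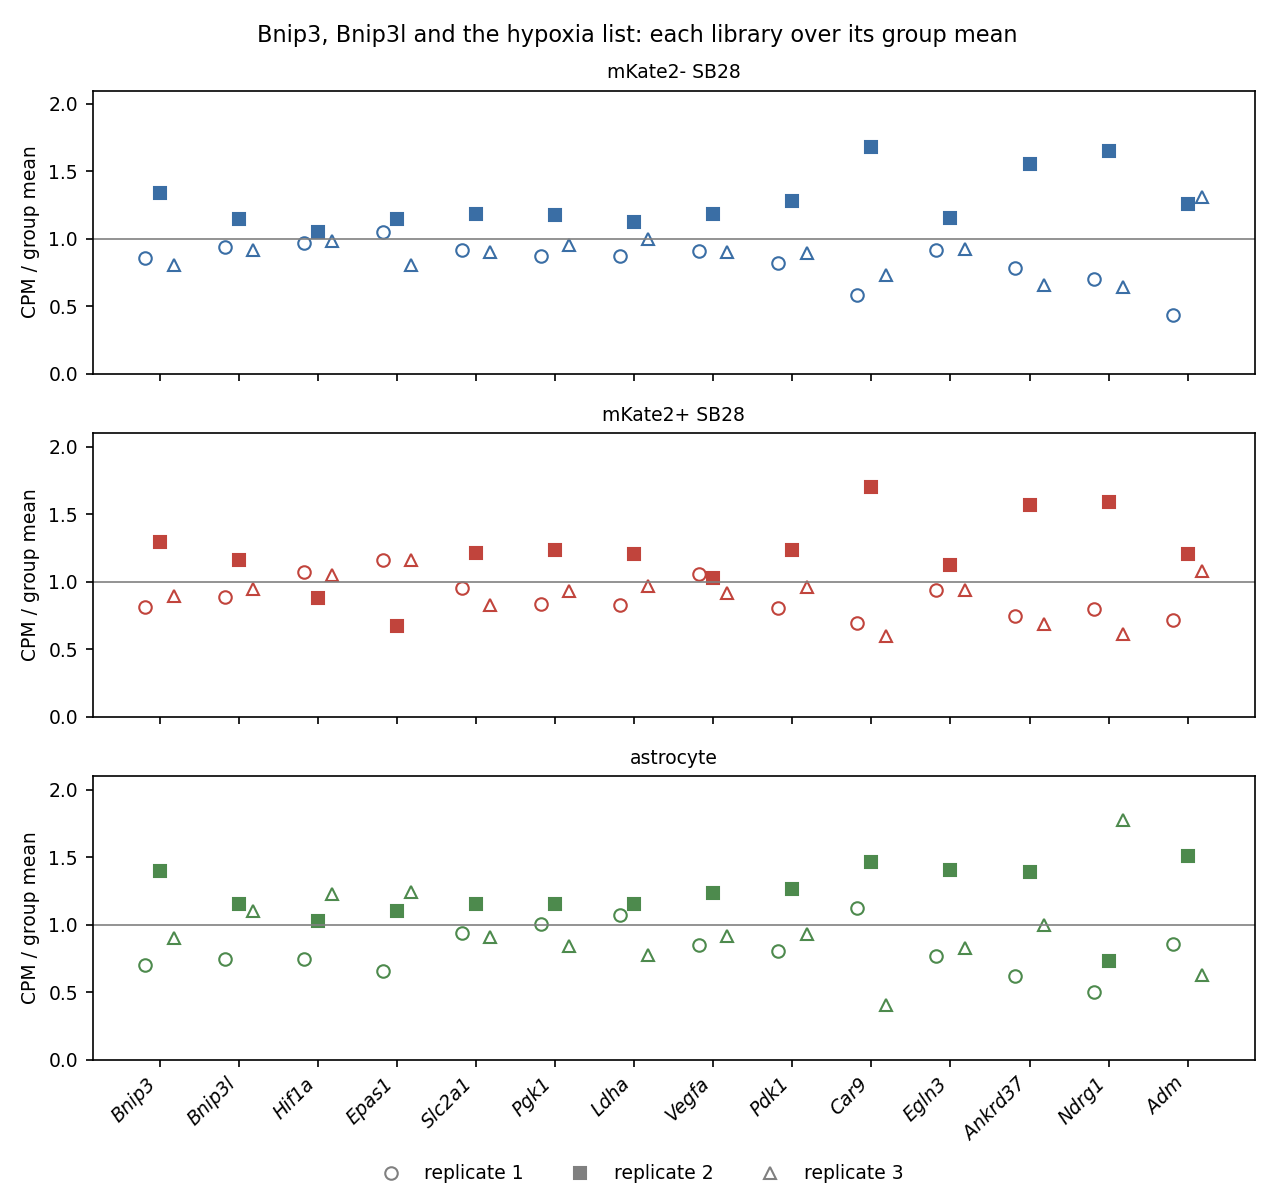
CPM of each library divided by the mean of its group (vertical axes, from 0) for Bnip3, Bnip3l and the 12 genes of the hypoxia list in the 3 groups, with shapes for replicate numbers and library 2 filled. Library 2 is at 1.34, 1.30 and 1.40 for Bnip3 in mKate2- cells, mKate2+ cells and astrocytes, above the other libraries of each group.

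Pink1 was the gene of the 9 that was called in both comparisons with astrocytes, and the genes most like it over all 9 libraries were Ifngr2, a subunit of the interferon gamma receptor, Saraf, a regulator of store-operated calcium entry, and Mfsd12, a lysosomal transporter. Their Pearson r with Pink1, on log2 CPM and given as a description, was 0.997, 0.996 and 0.996 among 13450 genes. These correlations follow the gap between astrocytes and tumor cells, and the 9 libraries share 3 groups and their depth. The genes most like Bnip3, named after their values were seen, were Ero1l, an oxidase of the endoplasmic reticulum, at 0.940, Pdk1 at 0.934 and Smtnl2 at 0.906.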

How the data were processed

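RNA was sequenced from 9 libraries by the authors, who trimmed adapters (Trimmomatic 0.36), mapped reads to GRCm38 (STAR 2.5.2b) and counted unique gene hits (featureCounts, Subread 1.5.2), per the methods and the submitters' processing notes. The deposited values are raw counts per gene without normalization. The annotation release and strand setting were not given in the sources used here, so reads of overlapping genes cannot be told apart. Names, positions and exonic lengths came from GENCODE M21, which named 49056 of 49315 gene IDs, and promoters from RefSeq. CPM were computed from each library total of all genes.

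Each comparison used its 6 libraries, genes above 1 CPM in at least 2 libraries, TMM scaling and edgeR's quasi-likelihood test with Benjamini-Hochberg adjustment over all genes tested (edgeR 4.0.16, R 4.3.3). The study used DESeq2 for tumor cells against astrocytes, and DESeq2 1.42.0 was an alternative here, beside upper-quartile scaling, scaling by totals alone, other filters, a fit to all 9 libraries, a replicate block, removal of a gene length trend (loess, span 0.3) and leaving out each library. Ratios were compared with exact permutation tests. Named genes were the 9 genes, up to 4 per list with the largest change among those called the same way against astrocytes in both comparisons, and the genes nearest to Pink1 by correlation. Other genes were named after their values were seen. The 9 genes and the 16 other lists were chosen with earlier results of these data known. Procedures were tested on simulated data. Depth makes counting error small for most genes, and the spread of 3 libraries limits precision. The mKate2 transgene was not analysed here.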

Additional observations from a re-analysis of the deposited data

How the results depend on the processing

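For the 9 genes against astrocytes, the numbers at an adjusted P value of 0.05 stayed within 1.5 times of 4 and 5 in every alternative run. Pink1, Phb2 and Bcl2l13 passed that threshold in all 13 alternatives without a replicate block in both comparisons, whereas Optn in mKate2- cells was lost without mKate2- library 3 and Fundc1 in mKate2+ cells in 7 settings. In mKate2- cells Bnip3 passed in 3, Fundc1 in 3, Bnip3l in 1 and Tbk1 in 1 of the 13, and in mKate2+ cells Bnip3 passed in 1. Without a filter on low counts, Phb2 was called higher in mKate2- cells (1 gene in place of 0, log2 fold change 1.01) and Sqstm1 was at 0.0314. Leaving out single libraries gave 0 to 1 of the 9 genes called higher in mKate2- cells and 1 to 2 called lower in mKate2+ cells, the added genes being Phb2 and Optn, whose log2 fold changes lie near the threshold of 1. The log2 fold change of Sqstm1 in mKate2- cells then ranged from -0.12 to 0.11. Upper-quartile scaling moved the median log2 fold change of all genes to -0.118 in both comparisons.

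Between mKate2+ and mKate2- cells, signs of small differences turned. Leaving out single libraries gave log2 fold changes of -0.0241 to 0.37 for Pink1, -0.43 to 0.13 for Bnip3, -0.16 to 0.13 for Bnip3l, -0.0362 to 0.10 for Bcl2l13 and -0.12 to 0.0773 for Tbk1, and scaling by totals alone gave -0.0401 for Bnip3l and -0.0293 for Bcl2l13. The number of all genes that met the criteria of the study, 23 higher and 20 lower, was 62 higher with DESeq2, 224 higher and 35 lower without a filter, 41 and 12 in a fit to all 9 libraries, 13 higher with the gene length trend removed, and 6 to 310 higher and 16 to 70 lower with single libraries left out, with 0 of the 9 genes among them in any setting. The lowest number of higher genes was found without mKate2+ library 2 and the highest without mKate2+ library 1, and the cause was not tested. With the longest transcript in place of merged exons, 2 genes changed place in the order per length in mKate2- cells, 4 in mKate2+ cells and 3 in astrocytes, and leaving out single libraries moved 0 to 2, 0 to 4 and 0 to 3 genes.

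Same-numbered libraries did not deviate together throughout, with correlations over 13450 genes between -0.147 and 0.251, of which not every one was above 0.1, and astrocyte library 1 correlated best with library 2 among the mKate2+ libraries. Of the 9 same-numbered pairs, 3 were above 0.1. The groups were sorted from the same co-cultures by the methods, but whether a number marks one of them is not stated and was not settled by these correlations, so the block was kept as an alternative, and the fits without it treat the libraries as independent. With a replicate block, 13 genes were higher and 33 lower in mKate2+ than in mKate2- cells, and 10 higher with the length trend also removed, a setting chosen after seeing the data like scaling by totals alone. Against astrocytes, the block turned the call of Bnip3 in both comparisons, at adjusted P values lower than in any alternative without it, and gave 0.0908 for Fundc1 in mKate2+ cells, and it changed no other call of the 9 genes. Depth limits genes with few counts, such as Calcoco2, which was at no more than 0.199 CPM and was not tested.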

Other observations

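The pattern of Bnip3 across replicate numbers was tested after it had been seen, in a fit to all 9 libraries with group and replicate number as terms (edgeR's quasi-likelihood F test). Bnip3 had an unadjusted P value of 0.000123, the 6th smallest of 13450 genes, and an adjusted P value of 0.21, so it failed the correction, and 0 genes passed an adjusted P value of 0.05 while 805 were below an unadjusted P value of 0.05. Its level in libraries numbered 2 was above that in libraries numbered 1 by 0.79 on the log2 scale, in 3 of 3 groups. Pdk1 was at 0.66 with an unadjusted P value of 0.000217, and Bnip3l at 0.45 with 0.0173. Without mKate2+ library 2, the values for Bnip3 were 0.80 and 0.000786, the 22nd smallest of 13410 genes, and over the 6 SB28 libraries they were 0.72 and 0.000767, the 23rd smallest of 11854, with 0 genes past the correction in either and 632 and 1126 genes at an unadjusted P value below 0.05.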
